A study of Mus musculus with 9 samples.

Results

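*Scd1* and *Scd2* encode stearoyl-CoA desaturases, enzymes of the endoplasmic reticulum that place a double bond at the Δ9 position of saturated fatty acyl-CoAs and so make oleate and palmitoleate, the main monounsaturated acyl chains of triglycerides, cholesteryl esters and phospholipids. The reaction uses molecular oxygen and electrons that cytochrome b5 reductase passes to cytochrome b5. Both genes are classical targets of sterol regulatory element-binding proteins (SREBPs) and of liver X receptors (LXRs), and polyunsaturated fatty acids are known to lower desaturase mRNA in liver and fat cells. *Scd1* is the form best known from liver, adipose tissue and sebaceous glands, and *Scd2* is the form best known from brain and developing skin.

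The 2 genes were taken from the 54432 rows of an RNAseq count table by their Ensembl identifiers, ENSMUSG00000037071 for *Scd1* and ENSMUSG00000025203 for *Scd2*. They were chosen by their log2 fold changes of each particle against control, which were among the largest decreases in these same data, so those values describe the pair and are given without a test. RNAseq covered 9 libraries of RAW 264.7 cells, a mouse macrophage-like line that grew out of a virus-induced tumour. There were 3 libraries of untreated control cells, 3 of cells treated with VLDL-sized emulsion particles and 3 of cells treated with chylomicron-sized (CHYL-sized) emulsion particles, each particle at 1 mM for 6 hours. The emulsions were made from sunflower oil with sodium caseinate as emulsifier, and the control cells received neither, so oil, emulsifier and particle cannot be told apart in a comparison with control. The methods describe pooling within a condition and experiment, so that each library stands for a pool, and p-values measure the spread between such pools.

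Depth was nearly equal, between 22393893 and 22856792 estimated counts per library. All 10 macrophage markers examined were present, and their summed level lay at 7436 to 7506 counts-per-million (cpm) in the control libraries, at 6655 to 6905 cpm with VLDL-sized and at 6874 to 7118 cpm with CHYL-sized particles. Of these markers 5 fell and 1 rose after VLDL-sized particles, where 17.9% of all tested genes were called lower and 17.8% higher (limma-voom), and 2 fell after CHYL-sized particles, where 13.0% were called lower and 12.7% higher. Their part in the results below was not tested. Of the 10 markers of other cell types, 5 were at 0 in every library and 8 did not exceed 3 counts in any, *Adipoq*, *Plin1*, *Alb* and *Cd3e* among those 8. The highest count of any of the 10 was 18, in a control library. Of the 10, 1 was expressed highly enough to be tested. It was at 0.67 and 0.35 on the log2 scale against control and was called after neither particle (limma-voom). The summed level of the 10 was 0.211 to 1.03 cpm in control and 0.487 to 0.775 cpm over both particle groups. The replicate 3 libraries stood apart from replicates 1 and 2 in each group, and values without them are given where they matter.

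The 4 mouse desaturase genes of this family lie side by side on chromosome 19 of GRCm38 (coordinates from GENCODE M21). *Scd3* spans 44203269 to 44244016 on the plus strand, *Scd2* 44293674 to 44306864 on the plus strand, *Scd4* 44333092 to 44346743 on the plus strand and *Scd1* 44394455 to 44407879 on the minus strand. Each has 6 exons in its longest transcript. The coding sequences of *Scd1* (1065 bases) and *Scd2* (1074 bases) were identical at 962 of 1065 aligned bases, or 90.3%. Over the whole transcripts, 252 of the 4794 31-base words of *Scd1*, or 5.26%, also occurred in *Scd2*. A single differing base removes every word that spans it, so this share cannot be set against the identity of the coding sequences. The longest run shared by the 2 transcripts without a difference was 147 bases, and no 150-base window, the length of 1 read, was shared. The stretches below are shown because they set how well a read can tell the paralogs apart. Among 120-base coding windows that align without gaps and lie within a single exon of each of the 4 genes, the first is the one in exon 4 where *Scd1* and *Scd2* are most alike, which encodes one of the histidine clusters that bind the iron atoms of the enzyme. Capitals mark bases that differ from *Scd2*, and every sequence is written 5′ to 3′ along its own gene.
*Scd1*, chr19:44401767-44401886, minus strand: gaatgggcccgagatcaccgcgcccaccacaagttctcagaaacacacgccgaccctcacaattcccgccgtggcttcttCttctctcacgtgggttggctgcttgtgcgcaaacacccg
*Scd2*, chr19:44299621-44299740, plus strand: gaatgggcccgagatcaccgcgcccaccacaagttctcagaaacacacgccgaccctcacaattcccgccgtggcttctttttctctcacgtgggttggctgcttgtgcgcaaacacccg
*Scd4*, chr19:44338922-44339041, plus strand: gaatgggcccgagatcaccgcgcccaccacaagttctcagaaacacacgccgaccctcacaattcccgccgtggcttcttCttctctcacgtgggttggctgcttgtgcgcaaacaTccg
The 3 sequences differ from each other at no more than 2 of 120 positions here, 1 for *Scd1* and 2 for *Scd4* against *Scd2*. The second window, in exon 2 near the start of the protein, is the one of the same kind where *Scd1* and *Scd2* are least alike, with 19 differences.
*Scd1*, chr19:44406561-44406680, minus strand: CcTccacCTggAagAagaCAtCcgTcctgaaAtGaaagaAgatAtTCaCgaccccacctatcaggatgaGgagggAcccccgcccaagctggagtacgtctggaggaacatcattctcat
*Scd2*, chr19:44294993-44295112, plus strand: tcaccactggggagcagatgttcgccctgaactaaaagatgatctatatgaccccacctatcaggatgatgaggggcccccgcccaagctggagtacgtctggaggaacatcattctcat
The differences lie mostly in the first part of this window, and its last part is shared letter for letter by both genes.

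*Scd2* was by far the more abundant of the pair in control macrophages. The *Scd2* level was 1288, 1353 and 1206 cpm in control replicates 1, 2 and 3, and the *Scd1* level was 9.42, 10.3 and 8.53 cpm. Per kilobase of transcript, which allows levels of different genes to be compared, *Scd2* stood at 235 ± 13.5 cpm per kb and *Scd1* at 3.65 ± 0.339 cpm per kb (mean ± SD, n = 3), using the mean length of the annotated protein-coding transcripts. The ratio of these levels was 64.6 ± 2.3 in control. It rests on the length given to *Scd1*, whose annotated coding transcripts differ in length, and on the group means the same ratio came to 121 with the longest transcript and 135 with the coding sequence alone. Ranked by level per kilobase among 11288 genes, *Scd2* was at position 358 and *Scd1* at position 8694 in control. *Scd2* took 99.1% of the counts of the 4 desaturase genes, which together made up 0.135 ± 0.0097% of a control library. *Scd4*, the family member best known from heart, had 2.68 ± 0.136 cpm in control, and *Scd3*, best known from skin, had at most 4.07 counts in any library and did not pass the filter of more than 10 counts in at least 3 libraries.

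After VLDL-sized emulsion particles the *Scd2* level was 134, 160 and 136 cpm in replicates 1, 2 and 3, and after CHYL-sized particles it was 173, 186 and 141 cpm. All 6 particle libraries lay far below all 3 control libraries, with no overlap. The mean of *Scd2* over 3 libraries was 1282 ± 73.9 cpm for control, 143 ± 14.1 cpm for VLDL-sized and 167 ± 23.5 cpm for CHYL-sized particles (SD). The log2 fold change, or signal log ratio (SLR), came from limma with voom weights. For *Scd2* it was -3.16 after VLDL-sized particles and -2.95 after CHYL-sized particles, each with a standard error of 0.10. These correspond to levels 8.96-fold and 7.74-fold lower than control. In bulk RNA, fewer cells that express a gene and less of its mRNA per cell cannot be told apart.

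*Scd1* was lower by a similar factor at a much lower level. Its level was 0.685, 1.57 and 1.28 cpm after VLDL-sized particles and 1.15, 1.62 and 0.823 cpm after CHYL-sized particles, again without overlap with the control libraries. The mean of *Scd1* was 9.41 ± 0.876 cpm for control, 1.18 ± 0.451 cpm for VLDL-sized and 1.20 ± 0.399 cpm for CHYL-sized particles (SD, n = 3). The log2 fold change of *Scd1* was -3.05 after VLDL-sized and -3.00 after CHYL-sized particles, each with a standard error of 0.27. Few reads stood behind these values. Estimated counts of *Scd1* ran from 199 to 244 in control but from 15.0 to 35.9 in the particle libraries, and the lowest of these, 15.0 in VLDL-sized replicate 1, has a 95% Poisson interval of 8.4 to 24.7. For *Scd2* the lowest count was still 2946. Such intervals cover counting error only.

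**Figure D1:**
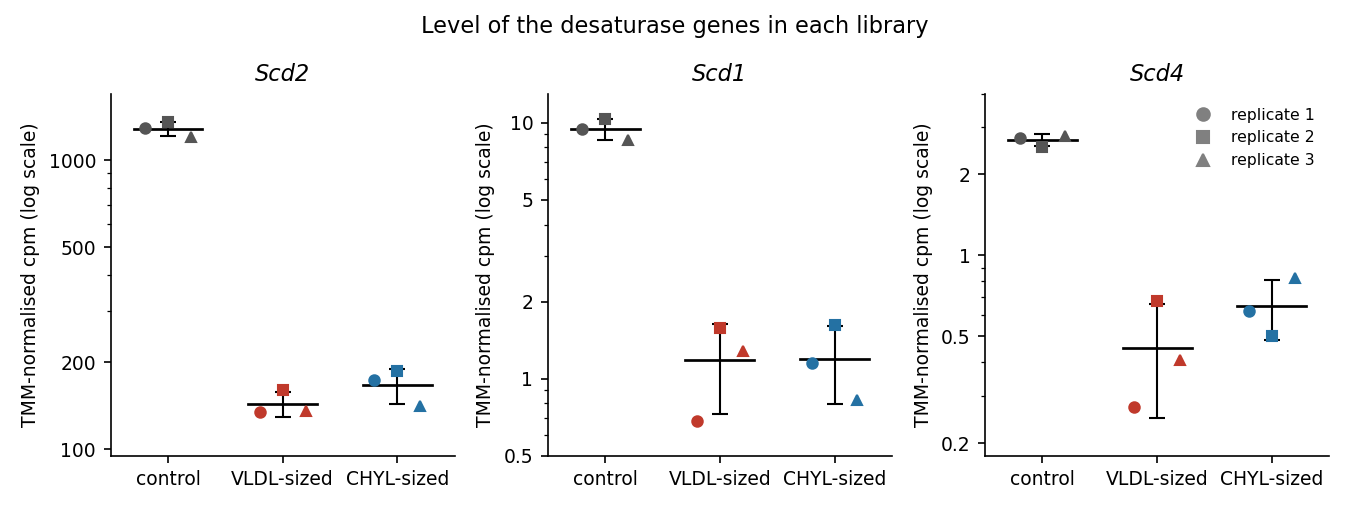
TMM-normalised level (cpm, log scale) of *Scd2*, *Scd1* and *Scd4* in each of the 9 libraries, with a point for each library, a line at the group mean and bars of 1 SD (n = 3). Every particle library sits below every control library for each gene: *Scd2* from 1206 to 1353 cpm in control and from 134 to 186 cpm after particles, *Scd1* from 8.53 to 10.3 cpm and from 0.685 to 1.62 cpm.

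The plot of levels by library also shows how far the replicates of a particle group lay apart. Replicate 2 was the highest of its group for both genes after either particle and in control. The contrasts with control share the same 3 control libraries, so their values are not independent of each other.

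By size of decrease, among genes that passed an adjusted p of 0.05, had a log2 fold change below -1, a mean of at least 50 counts in control and no overlap with control, *Scd2* was the second and *Scd1* the third of 197 genes after VLDL-sized particles, behind *Ccl7* (-3.23), a monocyte-attracting chemokine. *Elavl4* (-2.92), which encodes a neuronal-type RNA-binding protein, came next. After CHYL-sized particles *Scd1* was the first and *Scd2* the second of 103 genes, and *Elavl4* followed at -2.70. *Scd4* was the eighth in both orders. These positions are how the pair was chosen and carry no test. Over the 12637 genes tested, limma-voom called 17.9% lower and 17.8% higher after VLDL-sized particles and 13.0% lower and 12.7% higher after CHYL-sized particles. With library size as the only normalisation these shares were 26.2% and 11.9%, and 19.9% and 8.45%. Even so, *Scd2* did not become rare. Its position by level per kilobase moved from 358 to 3689 of 11288 after VLDL-sized and to 3287 after CHYL-sized particles, at 26.3 and 30.5 cpm per kb where the median gene had 13.4. *Scd1* moved from 8694 to 10598 and 10607.

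The 2 particle sizes were compared directly, a difference on which the genes had not been chosen. For *Scd1* the log2 difference of VLDL-sized against CHYL-sized was -0.05 (standard error 0.35, 95% interval -0.82 to 0.72, limma-voom adjusted p = 0.99). For *Scd2* it was -0.21 (standard error 0.10, 95% interval -0.44 to 0.02, limma-voom adjusted p = 0.79), a level 1.16-fold lower after VLDL-sized particles. The libraries of the 2 particle groups overlapped for both genes. Without the replicate 3 libraries the *Scd2* difference was -0.29 with an adjusted p of 0.049 (limma-voom), a fit added after the data had been seen. The interval for *Scd1* spans differences of nearly 1 log2 unit in either direction, so that a modest size effect was not detectable at this depth. Over the whole table limma-voom called 0 of 12637 genes between the particles (0.0%), with 813 at an unadjusted p under 0.05. edgeR also called 0, and DESeq2 called 24 of the 6512 genes to which it gave an adjusted p.

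The proportion between *Scd1* and *Scd2* was followed in each library, because shared sequence could pass reads from the abundant gene to the rare one. There were 0.731, 0.76 and 0.708 estimated *Scd1* counts per 100 *Scd2* counts in the control libraries. After VLDL-sized particles there were 0.509, 0.981 and 0.942, and after CHYL-sized particles 0.665, 0.869 and 0.585. The particle libraries scattered on both sides of the control libraries, with means of 0.733 ± 0.0262 in control, 0.811 ± 0.262 after VLDL-sized and 0.707 ± 0.146 after CHYL-sized particles (SD, n = 3). Accordingly the *Scd1* log2 fold change exceeded that of *Scd2* by 0.12 after VLDL-sized particles and differed from it by -0.05 after CHYL-sized particles, both less than the 1-SD spread of that difference between libraries. *Scd2* kept 98.9% of the counts of the family in both particle groups, while the share of the whole family in a library went from 0.135% to 0.0142 ± 0.00154% and 0.0166 ± 0.00251%. Whether part of the *Scd1* count came from *Scd2* reads was not tested.

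**Figure D2:**
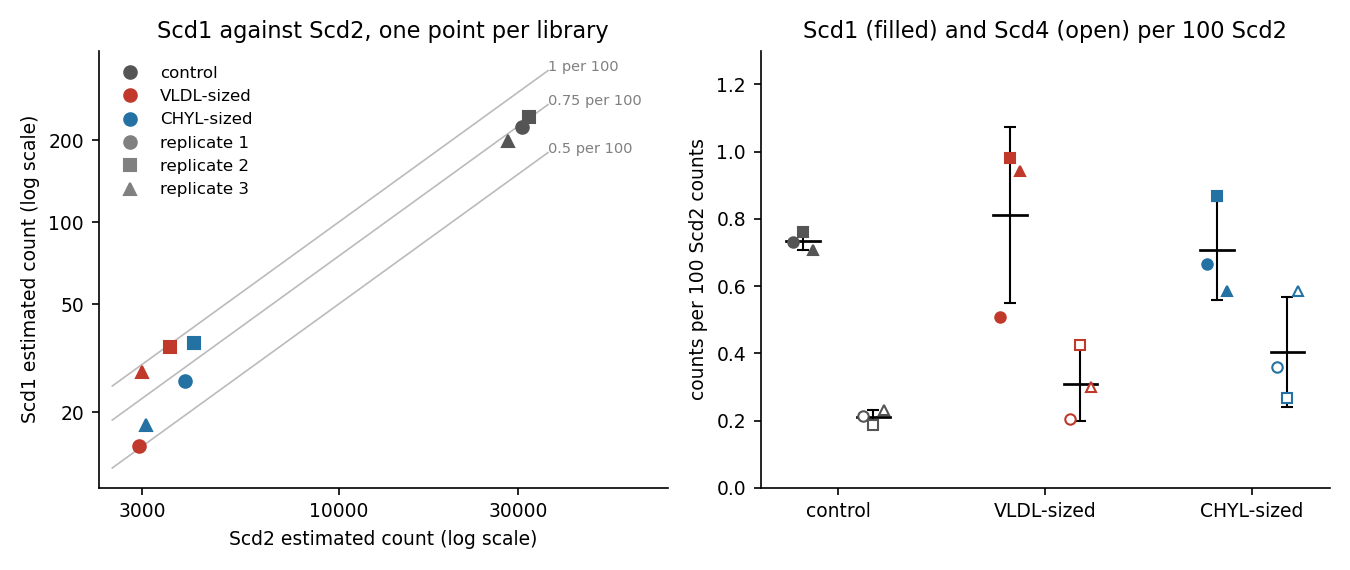
Left, estimated counts of *Scd1* against *Scd2* on log scales with grey lines of equal proportion; right, *Scd1* (filled) and *Scd4* (open) counts per 100 *Scd2* counts, with the mean and 1 SD of each group (n = 3). *Scd1* stayed between 0.509 and 0.981 per 100 *Scd2* counts while *Scd2* counts ran from 2946 to 32116, whereas *Scd4* was at 0.187 to 0.231 in control and at 0.204 to 0.584 after particles.

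*Scd4*, which lies between *Scd2* and *Scd1* and was not part of the choice, was lower after both particles as well. Its counts were 65, 60 and 65 in control, 6, 15.1 and 9 after VLDL-sized and 14, 11.1 and 18 after CHYL-sized particles, so that no particle library reached a control library. The log2 fold change was -2.59 after VLDL-sized (standard error 0.29, limma-voom adjusted p = 7.2e-05) and -2.04 after CHYL-sized particles (standard error 0.26, limma-voom adjusted p = 0.00029). *Scd4* counts per 100 *Scd2* counts were 0.21 ± 0.0222 in control, 0.309 ± 0.11 and 0.404 ± 0.162, as the right panel of the plot of *Scd1* against *Scd2* counts shows. The *Scd4* coding sequence was 83.8% identical to that of *Scd2*, and what part of its few reads came from *Scd2* was not tested. Between the particles *Scd4* differed by -0.55 (standard error 0.35, limma-voom adjusted p = 0.85).

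The tested genes around the cluster had much smaller log2 fold changes. Besides the desaturases, 18 annotated genes lie within 250 kb of *Scd1* or *Scd2*, and 6 of them were expressed highly enough to be tested. After VLDL-sized particles 0 of the 6 passed an adjusted p of 0.05, where 17.9% of all tested genes were called lower and 17.8% higher (limma-voom). Of the 6, 2 had an unadjusted p under 0.05, edgeR and DESeq2 also called 0, and with the replicate block 2 were called, both lower (*Cwf19l1* at -0.21 and *Hif1an*, an oxygen-sensing hydroxylase, at -0.14). Their log2 fold changes ran from -0.49 to 0.08, with a median of -0.11. After CHYL-sized particles 1 passed, *Cwf19l1*, which encodes a protein related to a splicing factor. It was at -0.26 (limma-voom adjusted p = 0.030), where 13.0% of all genes were called lower and 12.7% higher. With the replicate block 2 of the 6 were called after CHYL-sized particles, both lower. The nearest tested neighbours were *Bloc1s2*, a subunit of a lysosome-positioning complex, at -0.02 and -0.03, and *Sec31b*, a coat protein of vesicles leaving the endoplasmic reticulum, at -0.49 and 0.20 with standard errors of 0.34 and 0.31.

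**Figure D3:**
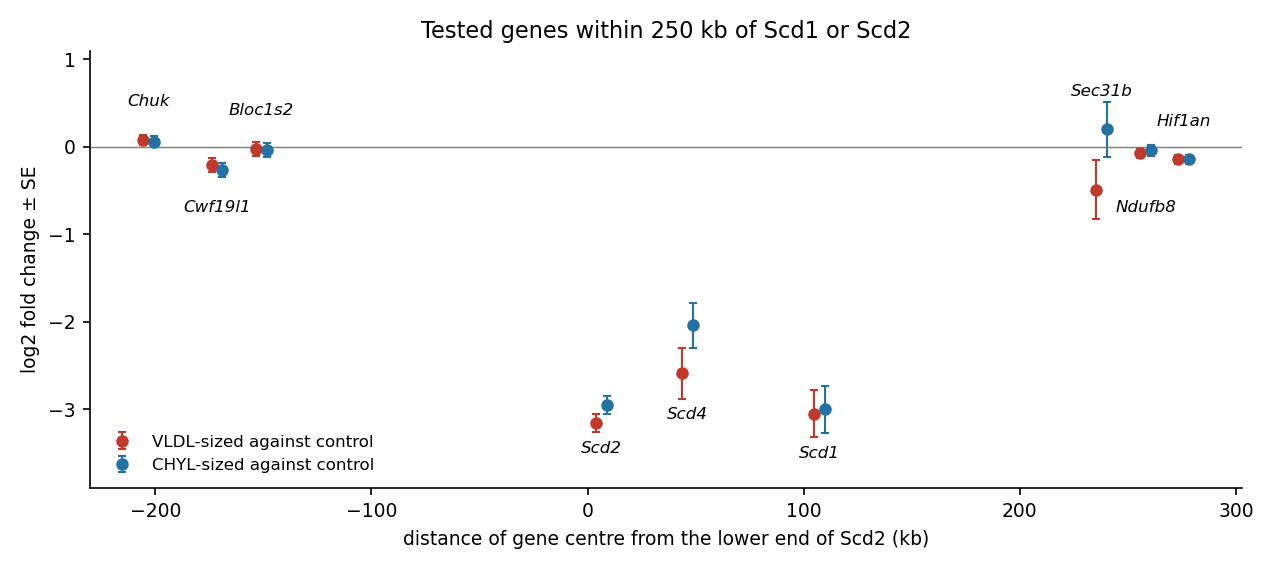
log2 fold change ± standard error of every tested gene within 250 kb of *Scd1* or *Scd2*, against the distance of its centre from the lower end of *Scd2* in kb, for VLDL-sized (red) and CHYL-sized (blue) particles against control. *Scd2*, *Scd4* and *Scd1* lie between -2.04 and -3.16, and the 6 other genes lie between -0.49 and 0.20.

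In the plot of neighbouring genes the 3 desaturases stand more than 1 log2 unit below every other tested gene of the region.

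Other genes of the pathway were taken from lists of general knowledge and compared in the same fit. Each count below stands beside a background, over all tested genes, of 17.9% called lower and 17.8% higher after VLDL-sized and of 13.0% lower and 12.7% higher after CHYL-sized particles. Of the 6 tested genes that carry electrons to the desaturases, 1 fell and 3 rose after VLDL-sized particles, and 1 fell and 1 rose after CHYL-sized particles. *Cyb5a*, which encodes the microsomal cytochrome b5 that feeds the desaturase, moved opposite to *Scd2*. It rose from 103 ± 2.73 cpm in control to 386 ± 3.96 and 381 ± 6.54 cpm, log2 fold changes of 1.90 and 1.88 (limma-voom adjusted p = 1.4e-09 and 1.6e-09). *Cyb5b*, the cytochrome b5 of the outer mitochondrial membrane, fell by 0.32 and 0.33 on the log2 scale. *Cyb5r3*, the main reductase, was at 0.15 and 0.09, and its call after VLDL-sized particles was lost in 4 of the fits that left out a library, with library size alone and with only the groups compared. After VLDL-sized particles 2 genes of this list fell and 3 rose with the replicate block, and 2 fell and 1 rose with library size alone. The median of the 6 was 0.07 and 0.03, where the median of all tested genes was -0.001 to 0.001 over the comparisons.

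Among 14 tested genes that supply saturated acyl-CoA, the substrate of the desaturases, 5 fell and 4 rose after VLDL-sized particles and 5 fell and 3 rose after CHYL-sized particles. *Fasn*, the fatty acid synthase, fell from 536 ± 35.2 cpm to 235 ± 14.9 and 251 ± 12 cpm, log2 fold changes of -1.19 and -1.09 (limma-voom adjusted p = 6.1e-07 and 1.6e-06). *Acaca*, which makes malonyl-CoA, fell by 0.87 and 0.91 on the log2 scale, *Acly*, which makes cytosolic acetyl-CoA from citrate, fell by 0.79 and 0.80, and *Mid1ip1*, an activator of acetyl-CoA carboxylase, fell by 1.38 and 1.20. These were all smaller changes in log2 than those of *Scd1* and *Scd2*, which were chosen for the size of their decreases. *Me1*, the malic enzyme that makes NADPH, rose by 1.29 and 1.15. *Elovl6* and *Elovl7*, elongases of saturated acyl chains, had 0 counts in every library (up to 3 counts per library remain possible), while *Elovl1*, an elongase of very long chains, was at 0.03 and 0.02. *Elovl3* was at 0.95 and 0.52, of which the first passed (limma-voom adjusted p = 0.030) and lost the call in 4 of the fits that left out a library.

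Of the 5 other desaturase genes tested, 2 fell and 1 rose after either particle. *Fads1* and *Fads2*, the Δ5 and Δ6 desaturases of polyunsaturated fatty acids, fell by 0.47 and 0.60 on the log2 scale after VLDL-sized and by 0.47 and 0.63 after CHYL-sized particles. *Degs1*, the desaturase that turns dihydroceramide into ceramide, rose by 0.31 and 0.29. The median of the 5 was -0.46 and -0.37. Set beside *Scd2* at -3.16 and -2.95, the decreases of the polyunsaturated branch were smaller, which follows from how *Scd2* was chosen.

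Enzymes that activate acyl chains or place them into lipids moved in both directions. Of 17 tested genes, 6 fell and 2 rose after VLDL-sized particles and 5 fell and 1 rose after CHYL-sized particles. *Lpin1*, a phosphatidate phosphatase, fell from 20.5 ± 1.36 cpm to 6.09 ± 0.433 and 6.11 ± 0.861 cpm, a log2 fold change of -1.75 after either particle (limma-voom adjusted p = 1.9e-06 and 2.7e-06). *Acsl3*, an acyl-CoA synthetase of lipid droplets, fell by 1.24 and 1.18 on the log2 scale and *Lpcat3*, which places polyunsaturated chains into phospholipids, by 0.37 and 0.38. *Soat1*, which esterifies cholesterol with oleate, rose by 0.41 and 0.34. *Dgat1*, an enzyme of the last step of triglyceride synthesis, was at 0.01 and -0.02 with a standard error of 0.08. *Dgat2*, another enzyme of that step, had 5.05 ± 0.988 cpm in control and was at -0.46 and -0.64. Only the second passed (limma-voom adjusted p = 0.025), a call kept in 16 of 20 alternatives. In the blocked fit 7 genes of this list fell and 5 rose after VLDL-sized and 8 fell and 3 rose after CHYL-sized particles. With library size alone 8 fell and 2 rose, and 8 fell and 1 rose.

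Of the 11 tested genes that make up or control the SREBP system, 5 fell and 3 rose after VLDL-sized particles and 4 fell and 2 rose after CHYL-sized particles. With library size alone these counts were 7 and 1, and 6 and 0. *Insig1*, an SREBP target that retains the SREBP complex in the endoplasmic reticulum, fell from 152 ± 7.88 to 34.6 ± 1.53 and 38 ± 1.3 cpm, log2 fold changes of -2.14 and -2.00 (limma-voom adjusted p = 5.6e-09 and 1.1e-08). *Srebf1*, which encodes SREBP-1, fell by 1.37 and 1.19 on the log2 scale, and *Srebf2*, which encodes SREBP-2, fell by 0.69 and 0.61. *Scap*, the escort protein of SREBP, was at -0.14 and -0.10 and passed neither test. Of 20 alternatives, 14 kept this result after VLDL-sized and 19 after CHYL-sized particles. With the replicate block the adjusted p of *Scap* after VLDL-sized particles was 0.025 (limma-voom). *Insig2* rose by 0.26 after either particle, a call that was lost with library size as the only normalisation and, for CHYL-sized particles, in 3 of the fits that left out a library.

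All 11 tested sterol genes of the SREBP target list fell after both particles, with a median log2 fold change of -1.44 and -1.27, where 17.9% and 13.0% of all genes were called lower. *Hmgcs1*, the synthase at the entry to sterol synthesis, had the largest decrease of the list, -2.23 and -2.06. *Fdft1*, the squalene synthase, fell by 1.74 and 1.56 on the log2 scale, and *Sqle*, the squalene epoxidase, by 1.44 and 1.34. *Scd1* and *Scd2* had larger log2 decreases than any of these 11 genes, which follows from how they were chosen. Of 5 tested LXR targets, 2 fell after either particle, *Abca1* by 1.34 and 1.23 and *Abcg1* by 0.93 and 0.90 on the log2 scale, both cholesterol exporters, and the median of the 5 was 0.12 and -0.04. With the replicate block 1 LXR target, *Smpdl3a*, also rose after VLDL-sized particles, by 0.34 (limma-voom adjusted p = 0.00079), and 2 LXR targets rose after CHYL-sized particles. Without the replicate 3 libraries 2 fell and 2 rose after each particle.

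Of 14 further regulators that are known to act on *Scd* promoters or on lipid genes, 3 fell and 2 rose after VLDL-sized particles and 2 fell and 2 rose after CHYL-sized particles, shares near those of all tested genes in both comparisons. *Ppard*, a lipid-activated nuclear receptor, rose by 0.98 and 0.63 on the log2 scale, *Rxra*, its heterodimer partner and that of LXR, rose by 0.34 and 0.35, and *Usf2* and *Usf1*, E-box binding factors, fell by 0.41 and 0.46 after VLDL-sized and by 0.30 and 0.41 after CHYL-sized particles. The LXR genes themselves passed neither test, *Nr1h2* at -0.08 and -0.01 and *Nr1h3* at -0.28 and -0.19. *Mlxipl*, which encodes the carbohydrate response element-binding protein, had 0 counts in every library. Of the 9 tested lipid-responsive genes, 0 fell and 5 rose after either particle, among them *Plin2*, the lipid droplet coat protein, which rose by 1.82 and 1.60, and *Cpt1a*, the carnitine acyltransferase of mitochondrial fatty acid import, which rose by 1.63 and 1.60. In the comparison of the particles with each other, limma-voom, edgeR and DESeq2 each called 0 of the 92 tested genes of these lists. Of the 92, 6 had an unadjusted p under 0.05 in limma-voom. DESeq2 gave an adjusted p to only 6512 genes in this comparison and could not call a gene without one. With the replicate block 1 of the 92 was called, and without the replicate 3 libraries 3 were, with 16 at an unadjusted p under 0.05.

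**Figure D4:**
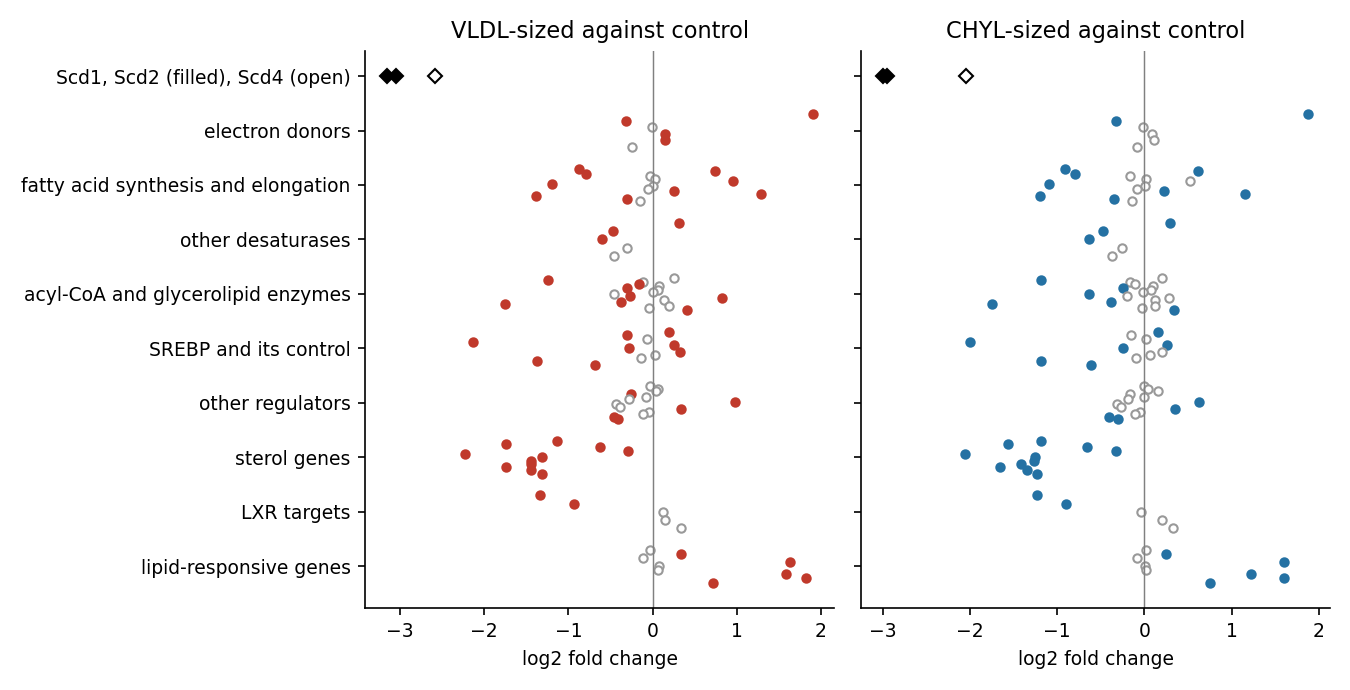
log2 fold change of each tested gene of the lists, VLDL-sized against control on the left and CHYL-sized against control on the right, with coloured points for an adjusted p under 0.05 (limma-voom) and open grey points for the rest. Black diamonds give *Scd1* and *Scd2* (filled) and *Scd4* (open). The 2 filled diamonds lie at -3.05 and -3.16 on the left and at -3.00 and -2.95 on the right. They lie beyond every gene drawn as a round point, which follows from how the pair was chosen. Of those genes *Hmgcs1*, at -2.23 and -2.06, came closest, and the open diamond of *Scd4* lies at -2.59 and -2.04.

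The plot of the pathway lists shows the sterol genes on 1 side of 0, the lipid-responsive genes that passed on the other, and the remaining lists on both.

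The genes whose pattern over the 9 libraries was most like that of *Scd1* and *Scd2* were named by the root mean square difference of log2 cpm after the control mean of each gene had been subtracted, among 8644 genes with at least 10 cpm in control and counts in every library. *Scd2* was the nearest to *Scd1*, at 0.29. *Scd1* itself, at 9.41 cpm in control, and *Scd4*, at 2.68 cpm, lie under the level limit and were not candidates. Next to *Scd1* came *Hcar2* (0.68), the niacin receptor, *Maf* (0.69), a transcription factor of differentiated macrophages, *Hmgcs1* (0.83) and *Insig1* (0.89). Next to *Scd2* came *Maf* (0.60), *Hcar2* (0.62), *Hmgcs1* (0.76), *Insig1* (0.82) and *G530011O06Rik* (0.86). *Scd1* and *Scd2* were thus closer to each other than either was to any other candidate. Genes under the level limit were not compared. *Maf* was at 135, 123 and 86.6 cpm in control replicates 1, 2 and 3, at 17.4, 21.6 and 8.88 cpm with VLDL-sized and at 32.5, 33.2 and 13.3 cpm with CHYL-sized particles, so that its replicate 3 library was the lowest in each group. The replicate 3 libraries of *Scd2*, at 1206, 136 and 141 cpm, were the lowest in control and after CHYL-sized particles but not after VLDL-sized particles. Without the replicate 3 libraries *Maf*, *Hcar2* and *Hmgcs1* were still among the 5 nearest to both genes, and *Cx3cr1*, a chemokine receptor, entered at 0.86 from *Scd1* and 0.77 from *Scd2*. The difference between control and particle libraries, on which the pair was chosen, makes up most of this measure.

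**Figure D5:**
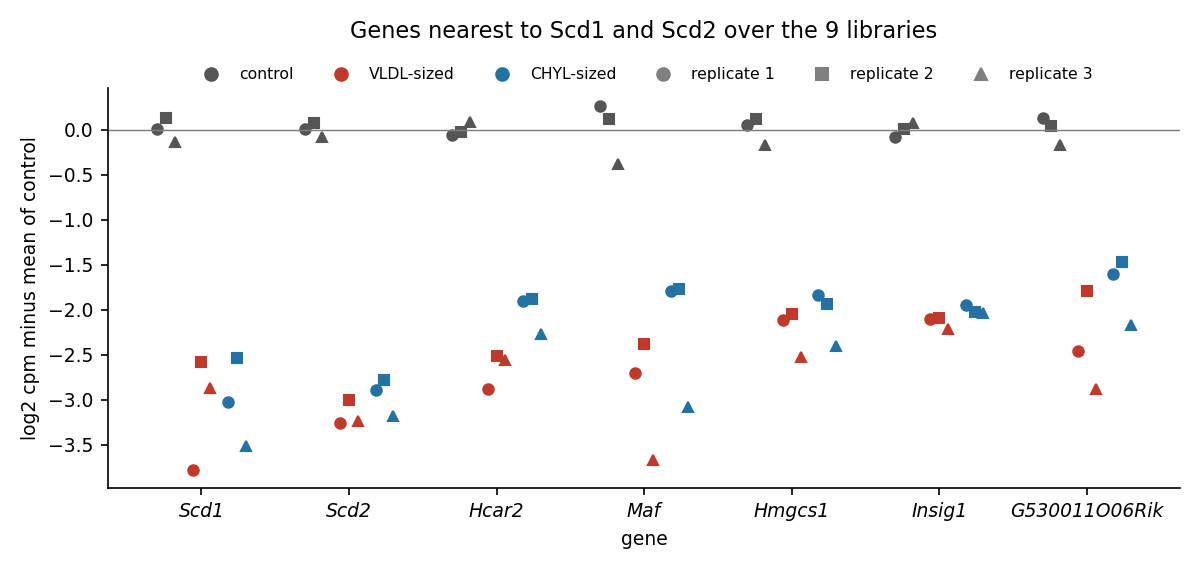
log2 cpm minus the control mean of the same gene, for *Scd1*, *Scd2* and the 5 genes nearest to them, with a point for each library coloured by group and shaped by replicate. In all 3 CHYL-sized libraries *Scd1* and *Scd2* lie below the other genes, and in VLDL-sized replicate 3 *Maf*, at 8.88 cpm, drops furthest.

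As the plot of the nearest genes shows, *Hcar2* and *Maf* approached the decrease of the desaturases after VLDL-sized particles, at -2.64 and -2.91, but less so after CHYL-sized particles, at -2.01 and -2.21. *Scd1* and *Scd2* were near -3 after either particle. This was not particular to the pair. *Elavl4*, at -2.92 and -2.70, and *Bahcc1*, at -2.76 and -2.65, also had large decreases after both particles.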

How the data were processed

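RNAseq libraries of RAW 264.7 cells were sequenced as 150-base read pairs. The authors quantified reads with Salmon 0.14.1 against GENCODE transcripts of GRCm38.p6, summarised them to genes with tximport and deposited an estimated count per gene for each library. According to the methods counts were scaled for transcript length and depth, but the deposited estimated counts looked unscaled, since 58.3% of values above 10 were whole, and such a scaling was not applied here. Groups and replicate numbers came from the sample labels.

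The 12637 genes exceeding 10 counts in 3 or more of the 9 libraries were TMM-normalised with edgeR 4.0.16 and fitted with limma 3.58.1 (voom weights) in R 4.3.3, in a single model with group as the only term and Benjamini-Hochberg adjustment over all genes tested. Levels are TMM-normalised cpm, and per-kilobase levels divide these by the mean annotated protein-coding transcript length. Transcript lengths, coordinates and sequences came from GENCODE M21 of GRCm38, the release before that of the authors. Coding sequences were aligned with Biopython. For edgeR and DESeq2 1.42.0 counts were rounded. The steps were tested on simulated counts.

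The pair and the 12 gene lists were chosen with earlier results of these data known. Named genes were the pair, the list genes, genes within 250 kb of the pair and the 5 genes nearest to each in pattern. *Ccl7*, *Elavl4*, *Bahcc1* and *Cx3cr1* are not covered by this rule and were picked with their values in view. Some list genes are counted but not reported individually here. Values of close paralogs are uncertain, since reads could be divided between them. Alternatives were edgeR's quasi-likelihood test, DESeq2, limma-trend, 3 other normalisations, no filter, a stricter filter of more than 50 counts, a replicate block, a fit of only the groups compared, and each library left out in turn. Leaving out all replicate 3 libraries was added after the data had been seen.

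Same-numbered VLDL-sized and control libraries deviated together from their group means across genes (Pearson's r 0.138, 0.132 and 0.293), all over 0.1, which counts as paired by the rule used. Control replicate 1 and VLDL-sized replicate 2, of unlike numbers, also had an r of 0.116. The fit behind the values has no block, as in the methods, and blocked values are given where they change the call of a named gene or move a count most. For CHYL-sized and control libraries r was 0.124, 0.068 and 0.338, which does not meet the rule. Control replicate 1 with CHYL-sized replicate 2 (0.155) and control replicate 2 with CHYL-sized replicate 1 (0.111) also exceeded 0.1. An r over 0.1 therefore does not by itself show pairing by number. No source says that a number marks a shared experiment.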

Additional observations from a re-analysis of the deposited data

How the results depend on the processing

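*Scd1* and *Scd2* kept their direction against control, and moved by less than the spread between replicates, under all 20 alternatives run. Leaving out libraries placed the log2 fold change of *Scd1* between -3.29 and -2.71 after VLDL-sized and between -3.24 and -2.76 after CHYL-sized particles, and that of *Scd2* between -3.24 and -3.12 and between -3.04 and -2.84. The *Scd1* minus *Scd2* difference ran from -0.05 to 0.41 and from -0.20 to 0.07 over the same fits. Between the particles, *Scd2* passed only without the replicate 3 libraries (-0.29, adjusted p = 0.049, limma-voom), and over all alternatives its difference lay between -0.33 and -0.13 and that of *Scd1* between -0.38 and 0.29.

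A block for the replicate number called 6058 in place of 4500 genes after VLDL-sized particles, 4949 in place of 3249 after CHYL-sized particles and 147 in place of 0 between the particles, where DESeq2 called 24, the fit without all replicate 3 libraries 257, and leaving out 1 library 0 to 1. The block did not change a call for *Scd1* or *Scd2* between the particles. The level of *Scd2* over that of *Scd1* per kilobase was 64.4 from group means, 121 with the longest transcript and 135 with coding length, because the length differs.

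Of 186 results for list genes and *Scd4* (a gene in a comparison with control), 144 kept their side of the threshold under every alternative, 42 lost or gained a call under at least 1, and 0 reversed. Counts as low as 15 limit the precision for *Scd1*.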
